A study of Mus musculus with 27 samples.

Results

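The genes described here encode the proteins of the cytosolic ribosome and their close paralogs. They were chosen by name alone, and no measured value entered the choice. The names were Rplp0, Rplp1, Rplp2, Rpsa, and Rpl or Rps followed by a number. After the number only a letter a, x, l or y and a digit, each optional, were allowed. This gave 83 genes of the 35527 on the array, 51 of the large and 32 of the small subunit, read by 179 probes. Single myofibers of the tibialis anterior were taken from male mice labelled as 3 months old, and the RNA of each was amplified and hybridised to its own array. The 8 wild-type (Wt) myofibers came from 2 mice and the 12 Smn1ΔSkm myofibers from 3 mice, 4 from each mouse. The 7 AFS-treated Smn1ΔSkm myofibers came from 2 mice, 4 from mouse 1 and 3 from mouse 2. These numbers are those of the labels, and the text of the study gives other numbers of AFS-treated mice and myofibers, so that the number of replicates is uncertain in that group. Smn1ΔSkm mice are HSA-Cre, Smn F7/F7, in which Cre driven by the human skeletal actin promoter removes exon 7 of Smn1 in skeletal myofibers and leaves the gene intact in other cells, satellite cells included. AFS-treated mice carried the same alleles and had received GFP+ c-kit+ amniotic fluid stem cells through the tail vein 1 month before the myofibers were isolated, so that their age at isolation by the methods is later than the labelled age.

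A ribosome joins a small subunit, which reads the mRNA, to a large subunit, which forms the peptide bond. Its proteins are made in balanced amounts, and most of their mRNAs begin with a run of pyrimidines, the 5′ terminal oligopyrimidine (TOP) tract, through which mTOR signalling and the RNA-binding protein Larp1 set their translation. A few proteins have paralogs with a narrow tissue range. Rpl3l replaces Rpl3, a protein that reaches towards the peptidyl transferase centre, in the ribosomes of heart and skeletal muscle, and Rpl10l stands in for the X-linked Rpl10 in male germ cells.

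The probes of the Rpl3 pair are shown first because the muscle paralog carried the largest fall of the set. Each probe of 60 bases spans 284 or 269 bases of the genome and so crosses an intron. The Rpl3 probe lies at chr15:79908489-79908772 and the Rpl3l probe at chr17:24872413-24872681 (mm9, minus and plus strand). The start of the Rpl3 probe and the end of the Rpl3l probe cover the same part of the coding sequence. Over these 27 aligned bases 20 were identical, and capitals mark the 7 that differ.
Rpl3: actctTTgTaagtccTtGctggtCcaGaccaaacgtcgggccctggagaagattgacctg
Rpl3l: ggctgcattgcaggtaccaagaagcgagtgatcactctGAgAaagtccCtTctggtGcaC

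Of the 83 genes, 81 passed the filter of a value on at least 75% of the 27 arrays and 75 had a value on every array. The exceptions were Rpl39l, a paralog of Rpl39 known from testis, measured on 3 arrays, and Rps4y2, measured on 20 and named Rps4l in RefSeq. Values are log2 signals minus the 75th percentile of the array, with spots not found, not well above background or uneven left out. For each gene the values of a mouse's myofibers were averaged first. These means entered limma, and p-values were adjusted by the Benjamini-Hochberg method over all 16648 genes tested, so that they rest on the spread between 2 or 3 mice a group. The level of a probe also depends on its sequence, so that only differences of one probe between samples are compared. Each array is scaled to itself, and a smaller share of the transcripts of a myofiber cannot be told apart from less of these mRNAs per myofiber. All Wt arrays lay on 1 slide and were scanned on a day of their own, so that batch and genotype cannot be told apart. The other groups shared 2 scan days.

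Between 23183 and 37595 probes on an array had a value under these rules, and they are called the probes above background here. Of the 12 myofiber markers, 10 to 12 were detected in each myofiber. The probe of Smn1 at chr13:100907539-100907598 (mm9) differed by -1.68 between Smn1ΔSkm and Wt (standard error 0.37, limma, adjusted p = 0.0201) and that at chr13:100898171-100898230 by 0.19 (limma, adjusted p = 0.715). Wt myofiber 8 stood apart, with 34012 probes above background against 23871 to 27329 on the other Wt arrays.

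Most ribosomal protein mRNAs were lower in Smn1ΔSkm than in Wt myofibers, but few of the single differences passed the test. Of the 81 genes 74 lay lower, which is 91.4% against 54.4% of all genes tested. The median difference was -0.57, and -0.11 over all genes. Limma called 9 of them lower, where 13.9% of all genes tested were called lower, and 1 higher, where 8.04% of all genes were. The shares called among the ribosomal proteins were thus no larger than over the array, although 58 of the 81 had every Smn1ΔSkm mouse below both Wt mice, an order found for 33.2% of all genes with values in every mouse. At an unadjusted p under 0.05 limma placed 32 lower and 1 higher, where 23.4% of all genes were lower and 16.1% higher by the same rule.

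**Figure D1:**
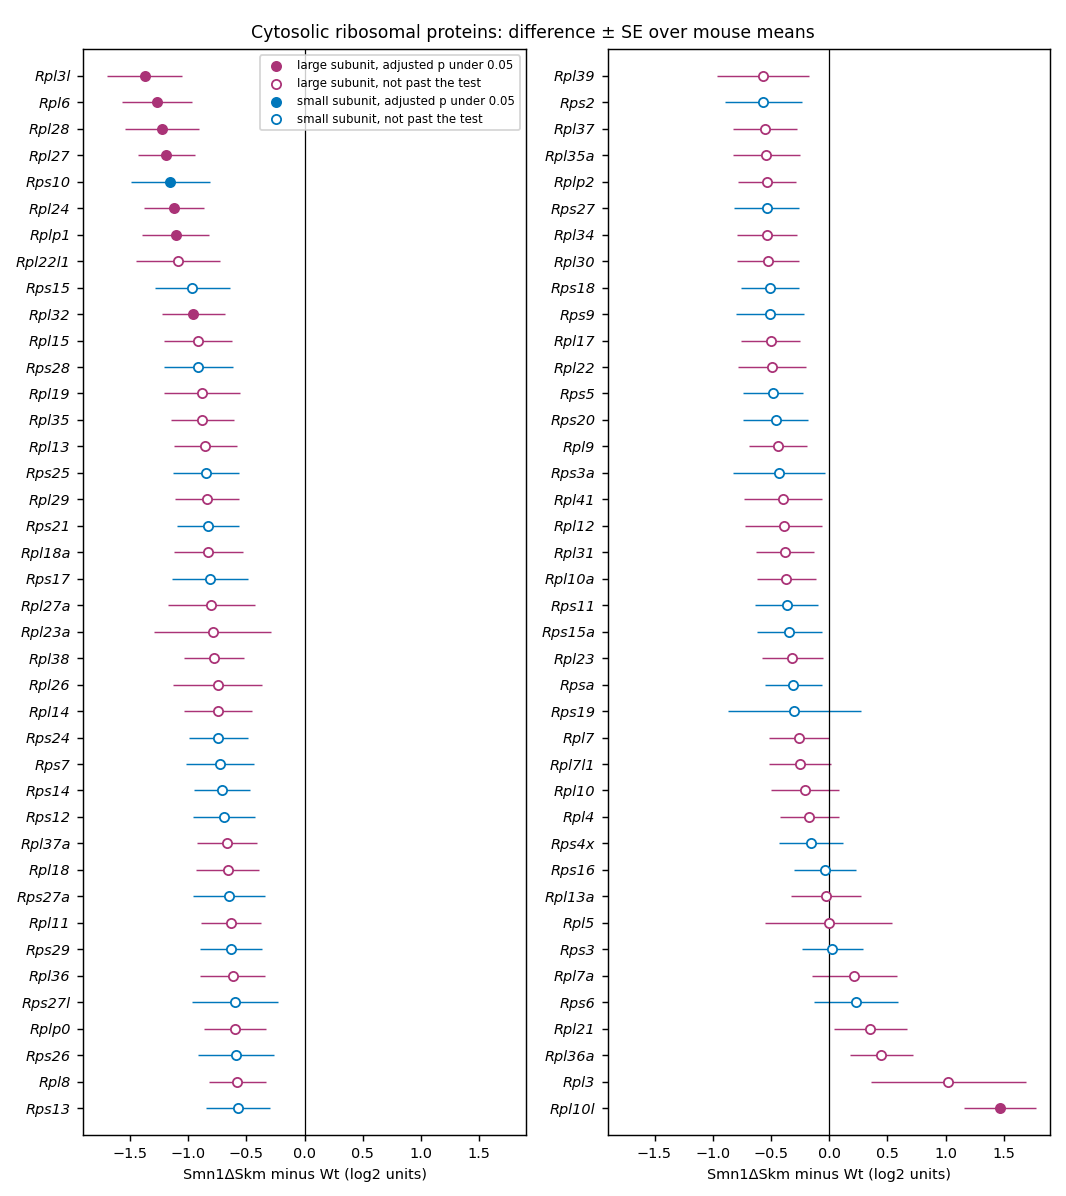
Difference between Smn1ΔSkm and Wt (x axis, log2 units) for 80 of the ribosomal protein genes tested, in order of the difference; points are estimates over 3 and 2 mice, bars are standard errors, colours give the subunit and filled points passed limma at an adjusted p under 0.05. The difference lies below 0 for 73 of the genes drawn, and the filled points are 8 genes at the lower end and Rpl10l at the upper end.

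The median was the same in both subunits. Of the 50 large-subunit genes tested 45 were lower, with a median of -0.57, and of the 31 small-subunit genes 29, also with a median of -0.57. The calls were 7 lower and 1 higher in the large subunit and 2 lower in the small subunit. The count of calls depended on single mice, and so did that of all genes. Limma called none of the 81 once either Wt mouse was left out, when it called 0 and 4 genes of the whole array. Without Smn1ΔSkm mouse 1 it called 32 lower and 1 higher (43.4% of all genes called), and 1 lower without Smn1ΔSkm mouse 2 or mouse 3 (8.23% and 9.81% of all genes called). Without Wt myofiber 8 it called 24 lower and 1 higher, where 26.5% of all genes were called, and the median was -0.73. With quantile normalization in place of the 75th percentile the median was -0.24 (all genes -0.02) with 1 called lower and 1 higher, where 16.3% of all genes were called. With each array centred on its median the difference of all genes moved to 0.10 and that of the ribosomal proteins to -0.35, with 68 of 81 lower.

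Among the genes called lower, Rpl3l showed the largest difference. Its level in the Wt myofibers ranged from 4.80 to 5.61 with a median of 5.43, and in the Smn1ΔSkm myofibers from 3.29 to 4.82 with a median of 4.01. The 2 groups overlapped in a single Smn1ΔSkm myofiber of mouse 2, and the other 11 lay below every Wt myofiber. The difference was -1.37 (standard error 0.32, limma, adjusted p = 0.0242), or 2.59-fold lower. Quantile normalization gave -1.05 and ended the call (limma, adjusted p = 0.0971), as did the table of the authors (-1.04), median centring (-1.16) and normexp (adjusted p = 0.0931). Leaving out Wt mouse 1, Wt mouse 2 or Smn1ΔSkm mouse 3 also ended it, with differences of -1.40, -1.35 and -1.42. The 4 myofibers of Smn1ΔSkm mouse 1 ranged from 3.29 to 3.73, and 1 myofiber of mouse 3, at 3.57, lay among them.

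Rpl6, a protein of the large subunit, ranged from 4.65 to 5.70 in Wt and from 3.34 to 4.63 in Smn1ΔSkm myofibers, and no Smn1ΔSkm myofiber reached the lowest Wt myofiber. It differed by -1.27 (standard error 0.30, limma, adjusted p = 0.0241). Rpl28 ranged from 5.14 to 5.96 in Wt and from 3.30 to 5.07 in Smn1ΔSkm, again with all 12 Smn1ΔSkm myofibers below the Wt range, and differed by -1.23. Rpl24, which forms a bridge between the subunits, was the other gene named here without overlap and differed by -1.12. It lay at 5.53 to 6.69 in Wt and 4.64 to 5.43 in Smn1ΔSkm. How many of all genes tested had myofibers that separate in this way, in either direction, was not counted. Rpl27 had a median of 7.10 in Wt and 5.87 in Smn1ΔSkm but a lowest Wt value of 5.84, that of Wt myofiber 8, and differed by -1.19. Rplp1 and Rpl32 also had their lowest Wt value in that myofiber, inside the Smn1ΔSkm range. Rplp1 (-1.11), Rpl32 (-0.96) and Rps10 (-1.15) were also called lower, with 6, 9 and 9 of the 12 Smn1ΔSkm myofibers below all Wt myofibers.

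Rpl10l was the only gene of the set called higher. It gave dim signals, from -2.40 to -1.03 on 7 of the 8 Wt arrays, against -0.88 to 0.33 in the 12 Smn1ΔSkm myofibers, which did not overlap with Wt. The difference was 1.47 (standard error 0.31, limma, adjusted p = 0.0182), and 1 Wt array had no value. Its probe at chr12:67384868-67384927 (mm9, minus strand) is shown because the gene belongs to a pair of near copies.
Rpl10l: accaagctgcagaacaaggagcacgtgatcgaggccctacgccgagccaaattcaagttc

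Rpl10, its X-linked partner, ranged from 5.20 to 7.14 in Wt and from 5.75 to 6.54 in Smn1ΔSkm and differed by -0.21 (limma, adjusted p = 0.621). Hybridisation of Rpl10 transcripts to the Rpl10l probe was not tested.

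None of the other paralogs on the array under the naming rule was called. Rpl3 lay on the opposite side to Rpl3l, from a range of 0.23 to 2.08 in Wt to 0.79 to 3.64 in Smn1ΔSkm, but the difference of 1.02 had a standard error of 0.67 and did not pass the test (limma, adjusted p = 0.284). Rpl22l1, the paralog of Rpl22, differed by -1.09 (limma, adjusted p = 0.0621). Rpl22 differed by -0.49 with its brightest probe and by -1.27 with its other probe. Rpl7 differed by -0.26 and Rpl7l1, which had a value on 21 arrays and 5 of the 8 Wt arrays, by -0.25. Rps27 differed by -0.54, Rps27l by -0.60 and Rps4x by -0.16. Rpl36a differed by 0.45, whereas its paralog Rpl36al, an array gene outside the naming rule, was called lower at -1.04 (standard error 0.27, limma, adjusted p = 0.0323). Rpl39 differed by -0.57 and its paralog Rpl39l was not tested.

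**Figure D2:**
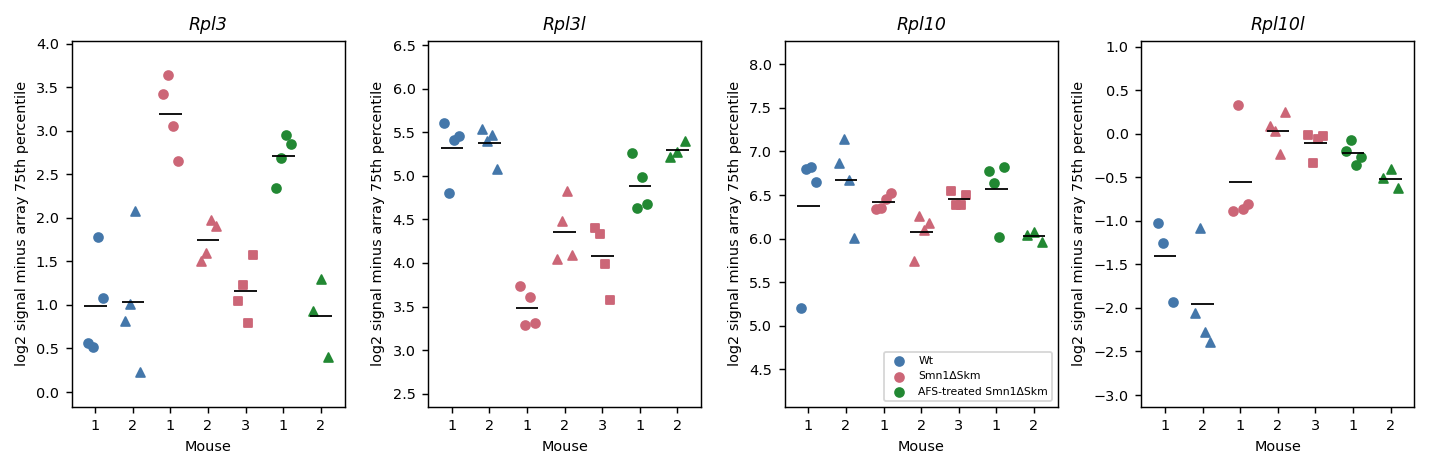
Level of Rpl3, Rpl3l, Rpl10 and Rpl10l in each myofiber (y axis, log2 signal minus the 75th percentile of the array; each panel spans the same number of log2 units), by mouse (x axis); points are myofibers, horizontal lines are means of a mouse and colours give the group. Rpl3l is low in the 3 Smn1ΔSkm mice and lies between 4.63 and 5.40 in the AFS-treated myofibers, whereas Rpl3 is high in mouse 1 of both Smn1ΔSkm groups.

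The stalk proteins recruit elongation factors to the ribosome. Beside Rplp1, which was called, the stalk base Rplp0 differed by -0.60 (limma, adjusted p = 0.137) and Rplp2 by -0.54 (limma, adjusted p = 0.146). Rpl5 and Rpl11, which form a particle with 5S rRNA and can bind Mdm2, differed by 0.00 and -0.64. Rps6, the substrate of the S6 kinases, differed by 0.23 and Rps19, the gene most often mutated in Diamond-Blackfan anaemia, by -0.30. Rpsa, also known as the laminin receptor precursor, differed by -0.31 and Rps27a, made as a fusion with ubiquitin, by -0.65. Apart from Rplp1 none of these passed the test, and with 1 mouse left out at a time the difference ranged across 0 for Rps6 (-0.05 to 0.43), Rps19 (-0.90 to 0.05), Rpl5 (-0.50 to 0.40) and, among the paralogs above, Rps4x (-0.38 to 0.07). Rps15, at 6.16 to 7.61 in Wt and 4.95 to 6.51 in Smn1ΔSkm, differed by -0.96 (limma, adjusted p = 0.0615). Rpl21 differed by 0.35 and, with Rps6, Rpl36a, Rpl3 and Rpl10l, had one of the 5 highest differences. All these values are those of the brightest probe of a gene. Over all probes tested the difference ranged from -0.60 to 0.23 for Rps6 and from -0.09 to 0.45 for Rpl36a. It ranged from -0.65 to 0.89 for Rps27a and from -1.12 to -0.09 for Rpsa. Among the paralogs above it ranged from -1.27 to -0.49 for Rpl22, -0.82 to -0.21 for Rpl10 and -0.76 to -0.26 for Rpl7. The range was -1.10 to -0.57 for Rpl39, -1.08 to -0.54 for Rps27 and -1.08 to -0.59 for Rpl11.

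Part of the spread lay between the mice of one group, where mouse and batch were partly bound together. All myofibers of Smn1ΔSkm mice 2 and 3 lay on 1 slide and those of mouse 1 on others. Mouse 1 and slide thus cannot be told apart in that group. The first scan day held only myofibers of mouse 1 of the Smn1ΔSkm and AFS-treated groups. Smn1ΔSkm mouse 1 had the highest mean of the 3 Smn1ΔSkm mice for 40 of the 81 genes, an order that 37.7% of all genes showed. AFS-treated mouse 1 lay above mouse 2 for 78, where 50.5% of all genes did. All 40 of the former were among the latter, and 23.3% of all genes showed both. Smn1ΔSkm mouse 1 lay more than 1 log2 unit above the mean of mice 2 and 3 for 6 genes, Rps19 (1.80), Rpl3 (1.74), Rpl5 (1.48), Rpl23a (1.44), Rps3a (1.04) and Rps27l (1.03), named after their values were seen. In AFS-treated mouse 1 the same 6 lay above mouse 2, by 1.03, 1.83, 1.13, 0.93, 0.53 and 0.27. How many of all genes lay more than 1 log2 unit higher in Smn1ΔSkm mouse 1 was not counted.

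For Rpl3 the levels in Smn1ΔSkm mouse 1 and in AFS-treated mouse 1 were high on both scan days. Myofibers 1 to 3 of Smn1ΔSkm mouse 1, scanned on the first day, gave 3.43, 3.64 and 3.05, and myofiber 4, scanned on the second, gave 2.66. All 4 lay above the other Smn1ΔSkm myofibers, which ranged up to 1.98. AFS-treated mouse 1 gave 2.69 and 2.95 on the first day and 2.35 and 2.85 on the second, and mouse 2 gave 0.92, 1.30 and 0.40. For Rpl5, Rpl23a and Rps3a the levels differed between the scan days within Smn1ΔSkm mouse 1. Rpl5 gave 5.21, 5.41 and 5.11 in the Smn1ΔSkm myofibers of the first day and 3.99 in myofiber 4, and in AFS-treated mouse 1 it gave 4.87 and 5.20 on the first day and 3.88 and 4.10 on the second. Rpl23a gave 5.75, 5.90 and 5.75 in the first-day Smn1ΔSkm myofibers and 3.97 in myofiber 4, within the range of mice 2 and 3, and in AFS-treated mouse 1 it gave 5.84 and 5.77 on the first day and 4.65 and 4.36 on the second. Rps3a gave 5.85, 6.26 and 5.66 in the first-day Smn1ΔSkm myofibers and 4.98 in myofiber 4. In AFS-treated mouse 1 Rps3a gave 5.55 and 5.27 on the first day and 5.14 and 5.21 on the second. For Rps19 and Rps27l, Smn1ΔSkm myofiber 4 (3.18 and 5.10) lay within the range of the first-day myofibers of mouse 1. Those gave 3.06, 3.49 and 3.78 for Rps19 and 5.11, 4.90 and 5.19 for Rps27l. Eef1a1, another TOP mRNA, which encodes the elongation factor that delivers tRNA, had means of 5.05, 2.43 and 1.37 in Smn1ΔSkm mice 1, 2 and 3 and of 2.49 and 0.96 in AFS-treated mice 1 and 2. Eef1a2 had means of 7.18, 6.16 and 6.58 in the same Smn1ΔSkm mice and of 7.29 and 6.83 in the AFS-treated mice. The remaining TOP mRNAs outside the set were not compared by mouse.

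Averaged over the 75 genes with values on every array, each taken relative to its own mean over all myofibers, the level in 7 of the 8 Wt myofibers lay between 0.31 and 0.67, and in Wt myofiber 8 it was -0.43. The Smn1ΔSkm myofibers ranged from -0.59 to 0.07 with a median of -0.22. The AFS-treated myofibers ranged from -0.30 to 0.52 with a median of -0.14. All Smn1ΔSkm myofibers thus lay below all Wt myofibers but the eighth. The level was lower on arrays with more probes above background, with Pearson's r of -0.70 and Spearman's rho of -0.67 over all 27 arrays, -0.89 and -0.29 over the 8 Wt, where myofiber 8 had both the lowest level and the most probes, -0.41 and -0.41 over the 12 Smn1ΔSkm and -0.78 and -0.71 over the 7 AFS-treated arrays. Both measures come from the same arrays, and their dependence on each other was not tested. The 75th percentile subtracted from an array had a median of 6.73 in Wt, 7.44 in Smn1ΔSkm and 7.01 in AFS-treated arrays. It was 7.30 in Wt myofiber 8, the highest Wt value. Its part in the differences between the groups was not tested. After quantile normalization the 7 Wt myofibers lay between 0.13 and 0.27 and Wt myofiber 8 at -0.20, and the Smn1ΔSkm myofibers between -0.33 and 0.14. Under 75th-percentile scaling Smn1ΔSkm mice 1, 2 and 3 had means of -0.12, -0.24 and -0.36. AFS-treated mice 1 and 2 had means of 0.22 and -0.21. With quantile normalization these means were -0.11, 0.01 and -0.13, and -0.01 and -0.10.

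**Figure D3:**
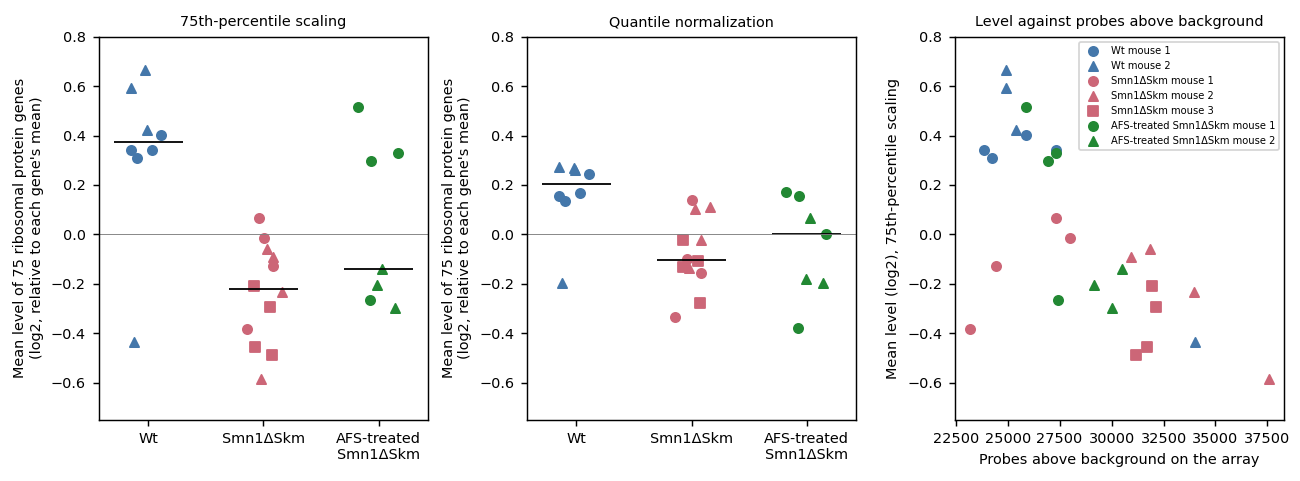
Mean level of the 75 ribosomal protein genes in each myofiber (y axis, log2 relative to the mean of each gene) by group under 75th-percentile scaling (left) and quantile normalization (middle), and against the number of probes above background on the array (right); points are myofibers, shapes are mice and lines are group medians. Wt myofiber 8, the lowest Wt point at -0.43, has 34012 probes above background.

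Of the markers of other cells, Ptprc alone was called between Smn1ΔSkm and Wt. Over the 3 of 7 endothelial markers tested, the log2 of the summed signal ranged from 2.46 to 3.64 in Wt, from 3.28 to 4.13 in Smn1ΔSkm and from 3.64 to 4.80 in AFS-treated myofibers. Of the 7, 1 to 7, 2 to 7 and 3 to 6 were detected. Over 2 of 7 fibroblast markers the same measure ranged from -0.80 to 5.99, 0.32 to 4.78 and 0.83 to 3.81, with medians of 1.03, 2.87 and 3.14. Pdgfra was detected in no Wt and no AFS-treated myofiber. Over 4 of 7 immune markers this measure ranged from 7.63 to 8.29, 7.55 to 8.01 and 7.81 to 8.27, with medians of 8.00, 7.83 and 8.08. Among these 4, Ptprc was higher in Smn1ΔSkm at 1.33 (standard error 0.30, limma, adjusted p = 0.0213). Over 11 of the 12 myofiber markers the log2 of the summed signal ranged from 11.2 to 11.9 in Wt myofibers. It ranged from 10.74 to 11.46 in Smn1ΔSkm and from 11.3 to 11.8 in AFS-treated myofibers. In Smn1ΔSkm Myh1 was called higher (2.20) and 3 of these markers were called lower, among them Mylpf (-1.99) and Ckm (-1.76). The part of these markers in the levels of the ribosomal proteins was not tested.

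Probes of one gene did not always give the same difference. At the level of single probes, 28 of the 171 probes tested were called, 26 lower and 2 higher, where 21.5% of all probes were called. Of the 53 genes with more than 1 probe tested, 41 had all probes lower and 11 had probes of both signs. The range between the probes of a gene had a median of 0.51, and it exceeded 1 for 8 genes. Of the 179 probes, 13 were placed by the array file on another chromosome than that of the gene in RefSeq, among them all 4 of Rps27 and all 3 of Rps29. Processed copies of ribosomal protein genes are common, and their part in the signal was not tested.

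**Figure D4:**
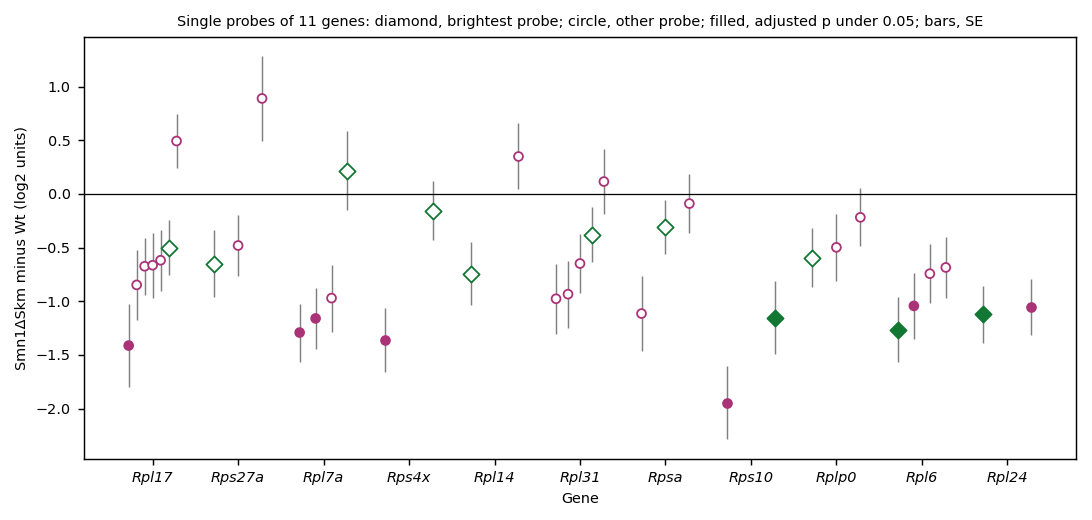
Difference between Smn1ΔSkm and Wt (y axis, log2 units) for each probe of 7 genes whose probes range over more than 1 log2 unit and of Rps10, Rplp0, Rpl6 and Rpl24 (x axis); diamonds are the brightest probe, which stands for the gene, circles the other probes, bars standard errors and filled symbols passed limma at an adjusted p under 0.05. The brightest probes of Rpl7a (0.22) and Rps4x (-0.16) lie nearer to 0 than the other probes of these genes.

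Rpl7a and Rps4x are cases in which the brightest probe set the gene apart from its other probes. The brightest Rpl7a probe, which lies upstream of the others, differed by 0.22. The other 3 probes overlap at the end of the coding sequence and differed by -1.29 and -1.16, both called (limma, adjusted p = 0.0177 and 0.0272), and by -0.97. They are shown over the 31 bases they share at chr2:26768759-26768789 (mm9, plus strand), up to and including the stop codon, in the order of these values, because they read slightly different sequences at one place. Capitals mark the 4 positions at which they differ.
Rpl7a, probe A: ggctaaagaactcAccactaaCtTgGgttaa
Rpl7a, probe B: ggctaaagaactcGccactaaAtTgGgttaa
Rpl7a, probe C: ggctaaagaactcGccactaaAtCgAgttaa

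For Rps4x, the brightest probe is placed on chromosome 3 and differed by -0.16, whereas the probe on the X chromosome differed by -1.36 (standard error 0.30, limma, adjusted p = 0.0204). A pair of Rplp0 probes overlaps in the same way, over 53 bases at chr5:116013404-116013456 (mm9, plus strand), with 5 differing positions in capitals. The first differed by -0.22 and the second, the brightest Rplp0 probe, by -0.60, neither past the test.
Rplp0, first probe: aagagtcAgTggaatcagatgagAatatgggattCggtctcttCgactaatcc
Rplp0, second probe: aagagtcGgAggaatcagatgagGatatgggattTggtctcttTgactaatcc

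The Rps10 probes, by contrast, share 40 identical bases around the stop codon at chr17:27767387-27767426 (mm9, minus strand), and both were called, the brighter at -1.15 and the other at -1.95 (limma, adjusted p = 0.0450 and 0.0123).
Rps10: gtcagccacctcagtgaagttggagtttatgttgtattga

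The transcription starts of the genes were examined for the TOP tract in the RefSeq promoter table (GRCm38.p6), which matched 62 of the 83 genes. A C followed by 4 bases that are each C or T, on the transcribed strand and beginning at most 5 bases to either side of the annotated start, was present for 28 of the 62 (45.2%) and for 21.2% of all 27025 genes of the table. The 28 genes with the tract that were tested had a median difference between Smn1ΔSkm and Wt of -0.58. The 32 in which it was not found had a median of -0.52. The rule depends on the annotated start, so that these 32 are not known to lack the tract. By this rule the tract was not found for Rpl6, Rpl24 and Rpl27, which were called lower, nor for Rpl10l, which was called higher. Their windows are not shown. The windows below hold the 15 bases before the annotated start and the first 15 of the transcript, with the tract in capitals. They show Rps10 and Rpl28, called lower, beside Rps6 and Rplp2, which were not, and Rpl3l, which was called lower and in which the tract was not found at either annotated start. They lie at chr17:27635230-27635259 (minus strand), chr7:4792950-4792979, chr4:86857353-86857382 (minus strand), chr7:141447636-141447665 and chr17:24727811-24727840.
Rps10: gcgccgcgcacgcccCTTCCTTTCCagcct
Rpl28: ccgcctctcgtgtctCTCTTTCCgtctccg
Rps6: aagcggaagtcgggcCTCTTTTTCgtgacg
Rplp2: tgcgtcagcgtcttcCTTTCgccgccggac
Rpl3l: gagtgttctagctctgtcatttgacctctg

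In AFS-treated compared with untreated Smn1ΔSkm myofibers, Rpl3l was the gene of the set with the largest rise in level. AFS-treated myofibers ranged from 4.63 to 5.40 with a median of 5.21, and 5 of the 7 lay above every untreated Smn1ΔSkm myofiber. The difference was 1.12 (standard error 0.32, unadjusted limma p = 0.00804), or 2.17-fold. After adjustment over all genes it did not pass the test (limma, adjusted p = 0.9997). Within the second scan day, which both groups share, the difference was 1.22, and with the scan day as a block it was 1.23. Against Wt the AFS-treated level differed by -0.25 (limma, adjusted p = 0.664). The 2 comparisons with Smn1ΔSkm myofibers share those myofibers.

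No gene of the array was called between AFS-treated and untreated Smn1ΔSkm myofibers (0% of the 16648 tested), and 3.2% of all genes had an unadjusted limma p under 0.05. Rpl3l was the only ribosomal protein among these. Of the 81 genes 76 were higher in the AFS-treated myofibers, with a median of 0.22 against 0.06 over all genes. In 21 of the 81 both AFS-treated mice lay above every untreated Smn1ΔSkm mouse, as in 12.4% of all genes. This median rested on mouse 1: it came to 0.04 when that mouse was left out and to 0.44 when mouse 2 was. With quantile normalization it was -0.01 and with the value table of the authors -0.01. After Rpl3l, the largest rises were those of Rpl22l1 (0.59, standard error 0.36) and Rps15 (0.55, standard error 0.32), and the lowest values those of Rpl3 (-0.24), Rpl10l (-0.16) and Rps19 (-0.12), of which Rpl3 ranged from -1.16 to 0.68 and Rps19 from -0.63 to 0.48 with 1 mouse left out at a time. Rpl10l ranged from -0.63 to -0.07 in AFS-treated myofibers, inside the range of untreated Smn1ΔSkm myofibers.

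**Figure D5:**
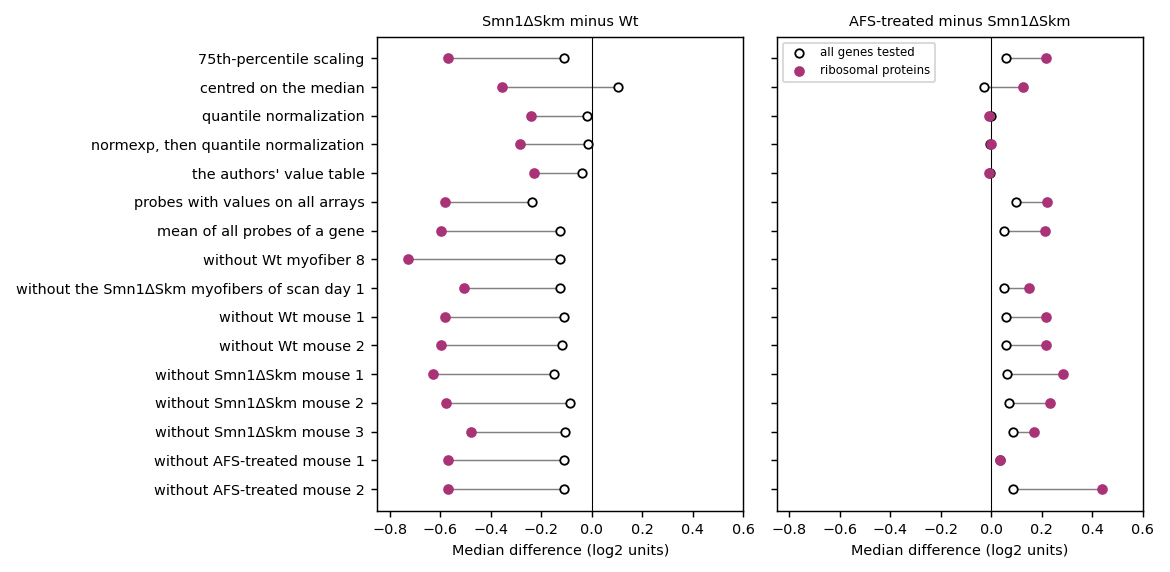
Median difference (x axis, log2 units) over the ribosomal protein genes (filled points) and over all genes tested (open points) for Smn1ΔSkm minus Wt (left) and AFS-treated minus Smn1ΔSkm (right) under different scalings and with mice or myofibers left out (y axis); the right panel has no point for the setting without Wt myofiber 8. On the left the filled point lies below the open one in every setting drawn, and on the right the 2 points lie within 0.01 of each other under quantile normalization.

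Between AFS-treated and Wt myofibers limma called none of the 81 ribosomal proteins, where it called 7.77% of all genes. At an unadjusted p under 0.05 it placed 10 lower and 1 higher, 11 of 81, where 29.7% of all genes fell under it. Of the 81 genes 67 were lower, with a median of -0.34 against -0.04 over all genes. Leaving out AFS-treated mouse 1 gave a median of -0.56, and leaving out mouse 2 gave -0.15. This comparison shares the Wt myofibers with that of Smn1ΔSkm and Wt.

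For lists of genes that work with these proteins, the share called in either direction was compared with the 21.96% of all genes. It was 27.6% for mitochondrial ribosomal proteins, 23.3% for pseudogenes, 21.6% for translation factors, 20% for mTOR and TOP control, 15.8% for ribosome-bound proteins and other TOP mRNAs and 15.6% for ribosome biogenesis. Of the 76 mitochondrial ribosomal proteins tested, 65 were lower in Smn1ΔSkm than in Wt and 21 were called lower, none higher, with a median of -0.63. Mrpl38 (-2.72), Mrps15 (-2.16) and Mrps24 (-1.80) showed the largest differences. Of 37 translation factors 7 were called lower, among them Eif2b2 (-1.55), a subunit of the exchange factor of eIF2, and Eif4g3 (-1.48), a scaffold of the cap-binding complex, and 1 was called higher, Eif1a (2.11), with a median of -0.64. Of 19 ribosome-bound proteins and other TOP mRNAs 3 were called lower, Hnrnpa1 (-2.49), Eef2 (-1.73), the translocation factor, and Gnb2l1 (-0.94), the Rack1 protein of the small subunit, with a median of -0.31.

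Of 45 genes of ribosome biogenesis 5 were called lower and 2 higher, where 13.9% and 8.04% of all genes were. Their median was -0.22. Polr1a (-2.28), the largest subunit of RNA polymerase I, Dimt1 (-1.70), an 18S rRNA methyltransferase, and Rrn3 (-1.62), an initiation factor of RNA polymerase I, had the largest differences of this list. Of 15 genes of mTOR and TOP control 3 were called lower and 14 lay lower, with a median of -0.61. They were Eif4ebp2 (-1.24), a repressor of cap-dependent translation, Tsc2 (-1.23), an inhibitor of mTOR complex 1, and Rps6kb1 (-1.20), the kinase of Rps6. Of 43 genes named as ribosomal protein pseudogenes 9 were called lower, Rpl27a-ps1 (-1.81) and Rps15-ps2 (-1.46) with the largest differences, and 1 higher, Rpl26-ps2 (1.52), with a median of -0.48. In AFS-treated compared with untreated Smn1ΔSkm myofibers no gene of these lists was called, and their medians ranged from 0.04 for ribosome biogenesis to 0.30 for the mitochondrial ribosomal proteins.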

How the data were processed

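Each sample was 1 myofiber on 1 single-colour Agilent mouse array, and Agilent Feature Extraction 10.7.3.1 gave the deposited intensity, background-subtracted and detrended but not scaled between arrays. RNA had been amplified in 18 cycles. The table of the authors holds linear signal values, equal in distribution between arrays, and served as an alternative. Spots not found, not well above background or uneven were left out, log2 was taken and the 75th percentile of each array subtracted. Repeated spots were averaged. A probe was kept if at least 75% of the 27 arrays gave it a value (22169 of 55681), and the brightest stood for its gene. Mouse means of all 3 groups entered 1 model in limma 3.58.1 (R 4.3.3), with calls at an adjusted p under 0.05 over all genes. The code was tested on simulated data. The number of arrays limits the precision. Mice, not myofibers, are the replicates, and probe positions are mm9 as the array files give them. Named genes were every gene called, the 5 largest rises and falls against Wt, the 3 largest rises and falls after AFS treatment, and functional groups and paralogs listed by name. For other lists up to 3 called genes were named. The genes, lists and tests were chosen with earlier results of these data known. The result of 1 gene is not reported here beyond its place in the counts.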

Additional observations from a re-analysis of the deposited data

Results flagged for a closer look

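In groups of 4 to 10 myofibers a value was marked where the gap to its nearest neighbour took a share of the whole range above the critical value of Dixon's test. This was applied to 65 sets of values, the mean level and the named genes in Wt and in AFS-treated myofibers, and chance marks about 1 in 20, or 3.25 of them. It marked 9, and all 9 were the lowest value, that of Wt myofiber 8. The mean level of the ribosomal proteins was -0.43 there, against 0.31 in the next Wt myofiber. Rpl11 was at 4.51 (next lowest 5.48), Rpl27 at 5.84 (7.05), Rpl32 at 5.12 (5.84), Rplp1 at 5.27 (6.13), Rps15 at 6.16 (6.98), Rps27l at 3.78 (4.92), Rps4x at 3.55 (4.55) and Rps6 at 4.11 (5.05). These values come from 1 array and are not independent of each other. That array had 34012 probes above background, and the part of this in the low values was not tested.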

How the results depend on the processing

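Between Smn1ΔSkm and Wt, the median of the ribosomal proteins minus that of all genes was -0.46 log2 units, and it stayed below 0 in every alternative run. It moved to -0.22 with quantile normalization, -0.27 with normexp background correction and -0.19 in the value table of the authors. The 9 genes called lower and 1 called higher depended more on the settings. The genes called lower, with the percentage of all genes called in either direction, numbered 3 with median centring (18.7%), 4 with no filter (13.7%), 14 with probes measured on every array (0 higher, 23.9%), 1 with quantile normalization (16.3%), 4 with normexp (2 higher, 15.7%), 1 in the table of the authors (16.04%), 14 without the Smn1ΔSkm myofibers of the first scan day (28.4%), 3 with the slide as a random block (10.9%), 27 with the mouse as a random block (35.5%) and 56 with myofibers taken as replicates (2 higher, 54.5%). Leaving out 1 mouse gave 0 to 32 lower and 0 to 1 higher (0 to 43.4%), and leaving out Wt myofiber 8, chosen after seeing the data, gave 24 lower (26.5%). All 10 called genes kept their sign in each alternative. Rpl10l and Rpl6 passed the test in 17 alternatives each, of 21 and 22, and Rpl32 and Rps10 in 9 of 22.

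Between AFS-treated and untreated Smn1ΔSkm myofibers the median relative to all genes, 0.16, became -0.00994 with quantile normalization and -0.00623 in the table of the authors, and 0.000588 to 0.35 with 1 mouse left out. Myofibers as replicates gave 1 gene called higher, Rpl3l, of 20 on the array. Between AFS-treated and Wt myofibers the genes called numbered 1 higher with median centring (6.45% of all genes), with the slide as a random block (6.94%) and with no filter (5.44%), 1 higher and 7 lower with the mouse as a random block (20.4%), 3 higher and 16 lower with myofibers as replicates (41.7%), 0 to 1 higher and 0 to 8 lower with 1 mouse left out (0 to 29.1%, both highest without Smn1ΔSkm mouse 1), and 1 higher and 1 lower without Wt myofiber 8 (9.94%). Their relative median ranged from -0.52 to -0.11 with 1 mouse left out. The cause of these changes was not tested.

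By their labels the mice share only a number between groups, but mouse 1 of both Smn1ΔSkm groups also shared the first scan day and 1 slide. With 2 mice in a group the deviations from its mean are mirror images, so that their r with another mouse differs only in sign. Same-numbered mice deviated together with r of 0.31 and 0.19 between the Smn1ΔSkm groups, 0.15 and 0.04 between Wt and Smn1ΔSkm, and -0.06 between Wt and AFS-treated mice. With the number as a replicate block 2 ribosomal proteins were called lower and 1 higher between Smn1ΔSkm and Wt (14.3% of all genes), and the other comparisons again had no call. Missing values limit Rpl39l, Rps4y2, Rpl7l1 and, in Wt, Rpl10l.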
